A study of Mus musculus with 9 samples.

Results

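The transcripts of 10 integrin subunit genes were followed in CD4+ T cells sorted from inflamed mouse colon, with and without the receptor CD160 on the transferred cells. The genes were chosen by name for gut homing and tissue retention (Itgae, Itgb7, Itga4, Itgb1, Itga1, Itga2, Itgal, Itgb2, Itgav and Itgb8), and all 10 are among the 23415 genes of the expression table. The mice were Rag1-/- recipients, which have no T or B cells of their own, injected with naive donor cells (CD4+ CD25- CD45RBhigh) that go on to cause transfer colitis. Donors were either CD160 knockout mice (4 libraries) or wildtype littermates, labelled Control (5 libraries). All 9 libraries come from the colon at the peak of disease, each from 5000 sorted CD4+ cells of the lamina propria fraction, after the intraepithelial fraction had been washed away. The labels give no age, no deleted exon of Cd160, and do not say whether each library is a separate recipient, so the p-values below measure the spread between these libraries. The values are TPM, each gene's share of all transcripts in a library corrected for gene length, so that levels of different genes can be set side by side. The sequencing depth behind them is unknown.

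Integrins are surface receptors made of an alpha and a beta chain, and the pairing sets what the cell can hold on to. Alpha-E (ITGAE) with beta-7 (ITGB7) binds E-cadherin on epithelium and retains lymphocytes in the mucosa, whereas alpha-4 (ITGA4) with beta-7 binds MAdCAM on gut vessels and brings lymphocytes into the intestine. Beta-1 (ITGB1) pairs with alpha-4, alpha-1 (ITGA1) and alpha-2 (ITGA2) for VCAM, fibronectin and collagens. Alpha-L (ITGAL) with beta-2 (ITGB2) forms LFA, the receptor for ICAM, and alpha-V (ITGAV) with beta-8 (ITGB8) releases active TGF-beta from its latent complex.

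Cd160, the targeted gene, had a mean of 11.5 ± 6.17 TPM (n = 4, ± SD) in the knockouts and of 100.6 ± 78.2 TPM (n = 5, ± SD) in the controls, with no overlap between the groups (limma, adjusted p = 0.572 with 9 libraries and 0.113 without control replicate 1). Control replicate 1 stood apart from all other libraries, with 7308 genes at 1 TPM or more against 11088 to 11711. Its TPM was 11.5% of the mean of control replicates 2 to 5 for the median gene, and the integrins shared in this, from 2.04% for Itgae and 3.56% for Itga1 to 18.3% for Itgav and 22.3% for Itgb1. Each comparison is therefore given with all 9 libraries and with the 8 libraries without control replicate 1. T cell markers were present throughout, 10 of 10 at 1 TPM or more in all 8, and 0 of the 10 had a higher mean in knockouts than in control replicates 2 to 5 (summed level 4737 to 6075 and 5823 to 6650 TPM). Of the B cell markers Ms4a1 was at 0 in all 9 libraries, whereas Cd79b and Cd22 had means of 9.04 and 6.78 TPM in knockouts and 4.04 and 2.53 TPM in control replicates 2 to 5. Macrophage markers were also present, all 12 of them at 1 TPM or more in each of the 8 libraries. Their summed level was 8747 to 15619 TPM in the knockout libraries, whereas control replicates 2 to 5 had 2413 to 9678 TPM. The sums of the other marker lists, knockouts first and control replicates 2 to 5 second, were 94.9 to 156.8 and 68.2 to 206.8 TPM for epithelium and 25.3 to 154.2 and 20.5 to 58.1 TPM for neutrophils. They were 11.6 to 18.8 and 6.54 to 19.1 TPM for dendritic cells, 4.73 to 22.5 and 3.52 to 12.1 TPM for B cells, 19.0 to 26.6 and 17.9 to 27.7 TPM for endothelium, and 36.5 to 1006 and 71.9 to 542.2 TPM for platelets. In bulk samples such as these, fewer cells of a type and less RNA per cell cannot be told apart.

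Promoter sequences are shown for 4 chains that share partners (alpha-4, alpha-1, beta-1 and beta-7), because Itga1 and Itgb1 are the members with the smallest unadjusted p in the comparison of 8 libraries, alpha-4 is another partner of beta-1, and beta-7 is the other beta chain that alpha-4 pairs with. Each is the stretch of 250 bases before the RefSeq transcript start (GRCm38.p6), 5′ to 3′ on the strand of the gene, and 7 of the 10 members had such an entry. Capitals mark matches, on either strand, to a RUNX motif (TGTGGT) or a GC box (GGGCGG); an ETS motif (CCGGAA) was searched too and had no match in these 4.
Itga4, chr2:79255176-79255425, plus strand: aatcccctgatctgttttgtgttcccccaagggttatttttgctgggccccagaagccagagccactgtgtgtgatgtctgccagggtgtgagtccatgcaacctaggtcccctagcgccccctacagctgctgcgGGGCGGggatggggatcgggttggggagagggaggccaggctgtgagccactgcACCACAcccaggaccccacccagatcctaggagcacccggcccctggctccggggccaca
Itga1, chr13:115101965-115102214, minus strand: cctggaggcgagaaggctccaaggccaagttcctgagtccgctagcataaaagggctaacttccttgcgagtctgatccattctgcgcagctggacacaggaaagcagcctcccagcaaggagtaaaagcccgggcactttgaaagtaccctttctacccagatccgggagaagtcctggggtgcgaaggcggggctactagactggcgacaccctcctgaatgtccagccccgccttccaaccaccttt
Itgb1, chr8:128685404-128685653, plus strand: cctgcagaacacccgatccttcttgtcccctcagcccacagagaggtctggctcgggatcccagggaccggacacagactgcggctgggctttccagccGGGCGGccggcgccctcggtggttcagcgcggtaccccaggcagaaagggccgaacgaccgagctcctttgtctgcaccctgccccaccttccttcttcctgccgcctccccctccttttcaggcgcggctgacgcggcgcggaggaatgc
Itgb7, chr15:102231936-102232185, minus strand: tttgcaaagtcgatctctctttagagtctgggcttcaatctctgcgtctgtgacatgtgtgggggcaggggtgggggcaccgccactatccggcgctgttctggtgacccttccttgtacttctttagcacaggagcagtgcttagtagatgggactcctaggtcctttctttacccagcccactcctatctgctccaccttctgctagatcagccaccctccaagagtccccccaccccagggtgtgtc
The Itga4 window held 1 RUNX and 1 GC box match and the Itgb1 window 1 GC box match, and those of Itga1 and Itgb7 held none. Of all 32851 promoter windows of this length, 14.0% held the RUNX letters, 32.7% the GC box letters and 12% the ETS letters. A match describes the letters only.

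The integrin genes differed widely in level, and part of the order of their group means, but not of every library, differed between the genotypes. Itgb2 was the highest, with 505.3 ± 45.7 TPM (n = 4, ± SD) in the knockouts and, in control replicates 2 to 5, 475.1 ± 36.0 TPM (n = 4, ± SD), followed by Itgb7 at 410.4 ± 83.3 and 350.6 ± 131.9 TPM. Itgal and Itgae came next in the knockouts, at 222.8 ± 37.9 and 132.8 ± 48.9 TPM, and in the reverse order in the controls, at 217.6 ± 60.2 and 309.4 ± 207.3 TPM. Ranks 5 to 7 were Itgb1, Itga4 and Itga1 in the knockouts, at 31.2, 25.8 and 22.2 TPM, and the reverse in the controls, with Itga1 at 42.5, Itga4 at 25.2 and Itgb1 at 15.9 TPM. By library, Itgal ranked above Itgae also in control replicates 1 and 4. Itgb1 ranked 7 in knockout replicate 1, as in control replicates 2 to 5, and ranked 5 in control replicate 1. Itga4 ranked above Itgb1 in knockout replicate 2 too, and Itga1 above Itga4 in knockout replicate 3. Of the knockouts only replicate 4 thus had the order of the knockout means at ranks 5 to 7. Itgav and Itga2 followed in both groups, with means between 1.74 and 5.02 TPM, and Itgb8 was under 1 TPM everywhere. In the knockouts the ranges of neighbouring genes in this order overlapped for Itgb2 and Itgb7, for Itgb1 and Itga4, and for Itga4 and Itga1. In control replicates 2 to 5 they overlapped for all neighbours except Itgal and Itga1, Itgb1 and Itgav, and Itga2 and Itgb8.

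**Figure D1:**
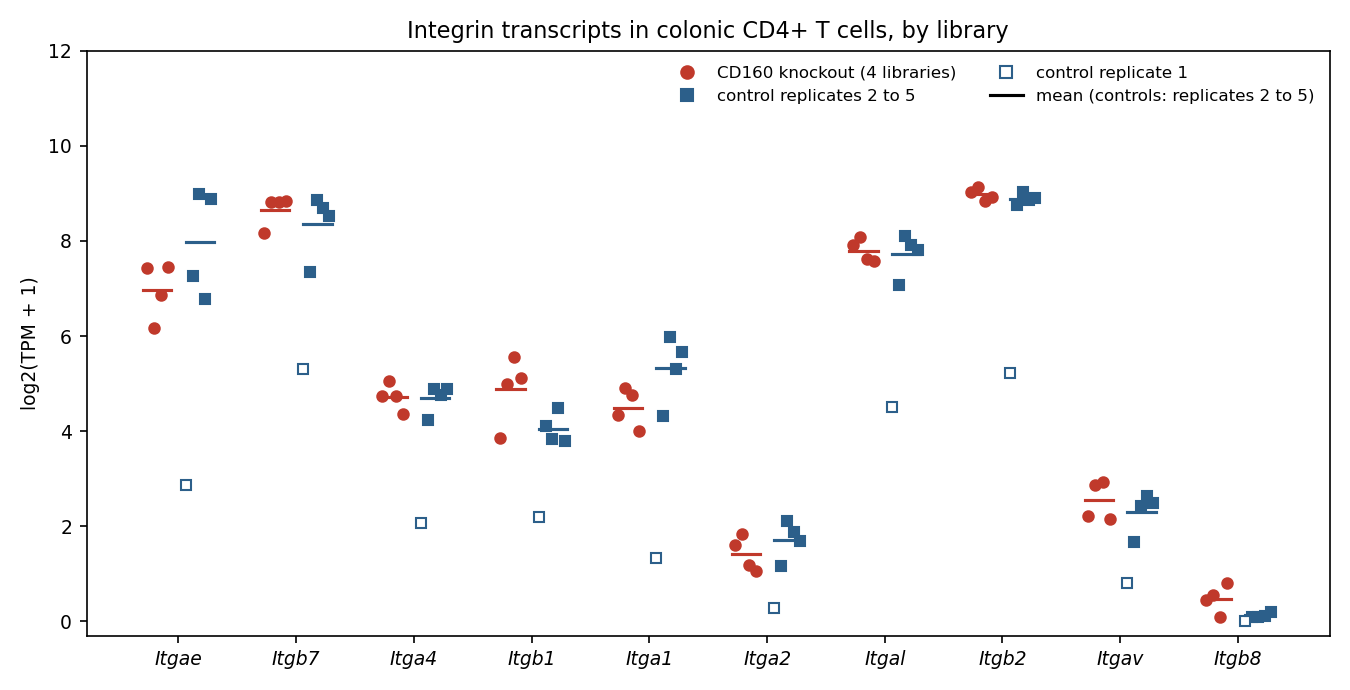
Level of each integrin gene as log2(TPM + 1) in every library. Points are libraries (red circles knockout, blue squares control, open squares control replicate 1) and lines the means of the 4 knockout libraries and of control replicates 2 to 5. The open square is the lowest library for every gene, and the filled points of the groups overlap for every gene.

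No integrin of the set was called different between the genotypes. In limma, a linear model fitted over all genes on log2(TPM + 1), 9 of the 10 members passed the filter on low values (at least 1 TPM in at least 4 libraries) and 1, Itgb8, did not. Of these 9, 0 passed an adjusted p of 0.05 with 9 libraries, where 0.0174% of all 11495 tested genes did, and 0 with 8 libraries, where 0.0262% of 11457 did. At an unadjusted p under 0.05 limma gave 0 of 9 with 9 libraries (background 6.39% in either direction, 5.78% higher and 0.618% lower in knockouts) and 2 of 9 with 8 libraries (background 12.8%). Those were Itgb1, with a higher mean in knockouts (8.44% of all genes were higher at this level), and Itga1, with a lower mean (4.41%). The exact permutation test over library splits gave 1 of 9, Itgb1, with 9 libraries (background 11.2%) and 0 of 9 with 8 (background 7.02%). In none of the 9 tested members were the groups free of overlap, as they were for 4.93% of all genes with 9 libraries (3.88% higher and 1.05% lower in knockouts) and 7.02% with 8 (4.01% higher and 3.01% lower). After adjustment over all genes the exact test called 0.0% of them with either set. Its smallest p, 0.0159 with 9 libraries and 0.0286 with 8, leaves such a call nearly out of reach. With 8 libraries an exact p under 0.05 occurs only where the groups do not overlap, so those counts are the same result. With control replicate 1 in the fit, log2 differences, knockout minus control, had a median of 0.46 over all tested genes, and 86.7% were positive. The members' median of 0.56 and their 7 positive and 2 negative differences are to be read against that shift. Without that library the median of all genes was -0.014, with 47.5% positive, and the members had a median of 0.068, with 6 positive and 3 negative.

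**Figure D2:**
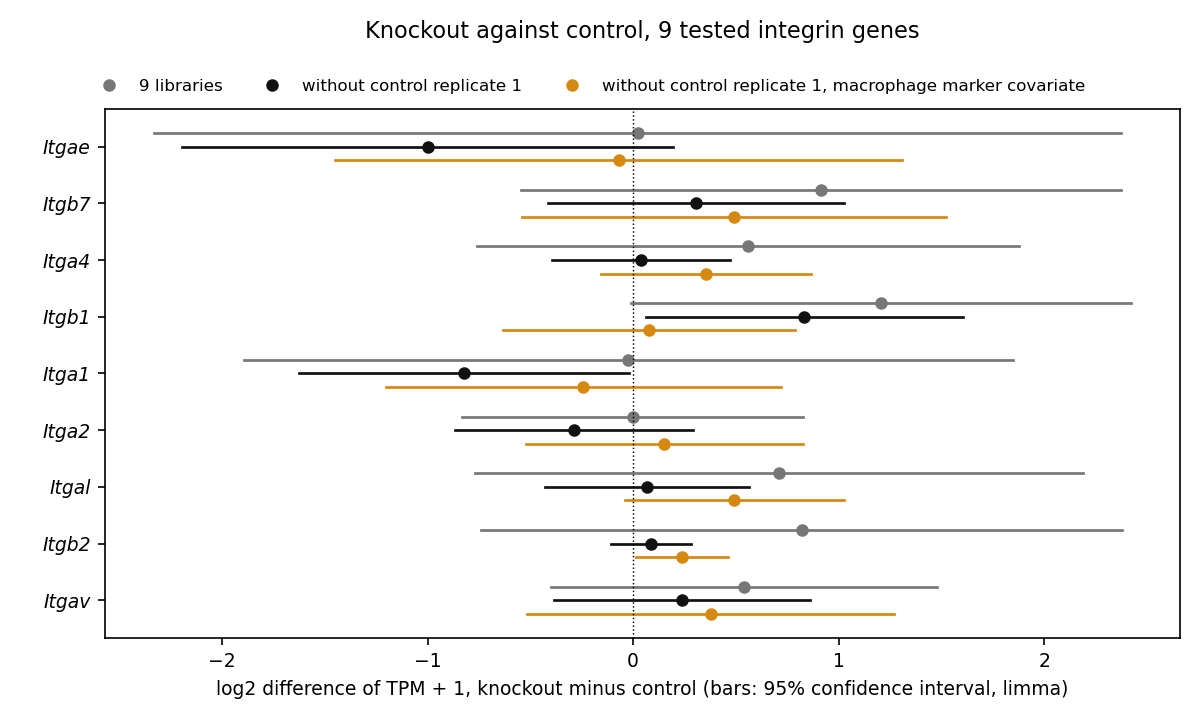
Log2 difference of TPM + 1, knockout minus control, for the 9 tested integrin genes, with 95% confidence intervals from limma. Grey points use 9 libraries, black points the 8 libraries without control replicate 1, and orange points those 8 with a macrophage marker covariate. With 8 libraries, Itgb1 at 0.83 and Itga1 at -0.82 have intervals that leave out 0, and with the covariate both lie closer to 0, while Itgal, Itga4, Itgb7, Itgav and Itgb2 lie farther from it.

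Itgae (chr11:73090583-73147446, plus strand, GRCm38), which encodes CD103, the alpha-E chain of mucosal retention, was the most uneven member among control replicates 2 to 5. Knockout replicates 1 to 4 had 171.1, 71.5, 115.1 and 173.4 TPM, and control replicates 1 to 5 had 6.32, 153.4, 503.8, 108.5 and 471.9 TPM. Control replicates 3 and 5 lay above every knockout library, while control replicates 2 and 4 lay within the knockout range and control replicate 1 below it. The SD of log2(TPM + 1) over control replicates 2 to 5 was 1.12, larger than that of 98.2% of the tested genes, whose median was 0.24. With 9 libraries the log2 difference was 0.022 (standard error 1.07; limma, adjusted p = 0.99), or -0.43 relative to the median of all genes. Without control replicate 1 it was -1.0 (standard error 0.53), with a 95% interval from -2.19 to 0.19 (limma, adjusted p = 0.485; exact p = 0.257). Without control replicates 3 and 5 as well, a choice made after their values were seen, it was -0.044 (limma, adjusted p = 0.984). Those were also the libraries with the most Cd8a, a CD8 T cell marker, at 81.2 and 86.1 TPM against 3.06 to 23.9 TPM in the other 7, whereas Cd8b1 stood at 1.11 to 9.88 TPM in all 9 libraries and was highest in knockout replicate 4. NK cell markers summed to 103.3 TPM in control replicate 3, 44.3 TPM in control replicate 5 and 5.42 to 37.1 TPM in the others. In control replicate 5 Klrb1f alone made up 37.7 TPM of that sum and Ncr1 stood at 0.79 TPM, and the mean log2 level of the list, 2.15, was below that of knockout replicate 1 (2.29) and control replicate 4 (2.37). Whether cells of these types were in the libraries was not tested, nor was their part in the Itgae values. Among controls Cd160 was also highest in replicates 3 and 5, at 212.4 and 151.2 TPM against 31.8 to 65.9 TPM in the others. Among knockouts it was highest in replicates 1 and 4, as was Itgae, at 14.5 and 18.8 TPM against 5.44 and 7.51 TPM. The relation of Cd160 to Itgae within the groups was not tested.

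Itgb7 (chr15:102215995-102231944, minus strand), the gene of the beta chain that alpha-E and alpha-4 share, stood at 285.6, 447.8, 452.9 and 455.3 TPM in the knockout replicates and at 38.8, 161.6, 462.9, 410.2 and 367.8 TPM in the controls. Knockout replicate 1 was the low library of its group, and control replicates 1 and 2 were low in theirs, with control replicates 3 to 5 inside the knockout range or just above it. The log2 difference was 0.91 (standard error 0.66) with 9 libraries (limma, adjusted p = 0.745) and 0.30 (standard error 0.32) with 8 (limma, adjusted p = 0.768). Itga4 (chr2:79255426-79333123, plus strand), the gene of the alpha chain of gut entry, had close means in the groups outside control replicate 1. It stood at 25.5, 32.5, 25.8 and 19.6 TPM in the knockout replicates and at 3.21, 17.9, 28.4, 26.1 and 28.4 TPM in the controls, and control replicates 2 to 5 spanned much of the knockout range. With 8 libraries its log2 difference was 0.036 with a 95% interval from -0.40 to 0.47 (limma, adjusted p = 0.968). With 9 libraries it was 0.56 (limma, adjusted p = 0.745), 0.10 above the median of all genes, and -0.0013 when libraries were rescaled by the median of ratios.

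Itgb1 (chr8:128685654-128733200, plus strand), the gene of the beta-1 chain of collagen, fibronectin and VCAM receptors, had the smallest unadjusted p of the 9 tested members. Knockout replicates 1 to 4 had 13.5, 31.02, 46.4 and 33.8 TPM, and control replicates 1 to 5 had 3.55, 16.1, 13.3, 21.6 and 12.8 TPM. Knockout replicates 2 to 4 lay above all controls, but knockout replicate 1 lay among them. The mean was 31.2 ± 13.5 TPM (n = 4, ± SD) against 15.9 ± 4.05 TPM (n = 4, ± SD) in control replicates 2 to 5, which is 1.96-fold. The log2 difference was 0.83 (standard error 0.34), with a 95% interval from 0.063 to 1.60 with 8 libraries (limma, unadjusted p = 0.037, adjusted p = 0.348; exact p = 0.0857). With 9 libraries it was 1.21, or 0.75 relative to the median of all genes (standard error 0.55; limma, adjusted p = 0.745; exact p = 0.0476, adjusted over all genes 0.424). Leaving out knockout replicate 1 together with control replicate 1, a choice made after its value was seen, gave 1.18 (limma, adjusted p = 0.105).

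Stromal marker transcripts were also highest in knockout replicates 2 to 4. Their sum was 44.6, 174.4, 225.8 and 368.6 TPM in the knockouts and 3.44, 106.8, 59.4, 133.2 and 55.0 TPM in the controls. Control replicates 4 and 2 came next, and knockout replicate 1 was below all controls but control replicate 1. All 6 of these markers, and all 12 macrophage markers, had a higher mean in the knockouts than in control replicates 2 to 5. By mean log2 level the macrophage markers were likewise highest in knockout replicates 2 to 4, at 7.91, 8.65 and 8.65. Knockout replicate 1 had 7.06 and control replicates 2 to 5 had 5.94 to 7.66. Their summed TPM did not follow this order, with 10566 in knockout replicate 1 and 8747 in knockout replicate 2. With the mean of the macrophage markers as a covariate, without control replicate 1, the difference of Itgb1 was 0.075, and those of Itgae and Itga1 were -0.071 and -0.24 (limma, adjusted p = 0.946 for Itgb1, 0.975 for Itgae and 0.854 for Itga1). Other members moved away from 0 in that fit, Itgal from 0.068 to 0.49, Itga4 from 0.036 to 0.35, Itgb7 from 0.30 to 0.49, Itgav from 0.24 to 0.38 and Itgb2 from 0.087 to 0.24, and Itga2 went from -0.29 to 0.15 (limma, adjusted p from 0.454 to 0.872). The members' median rose from 0.068 to 0.24, and that of all genes from -0.014 to 0.074. The covariate itself differed between the groups, at 8.07 ± 0.755 in knockouts and 6.74 ± 0.818 in control replicates 2 to 5 on the log2 scale (SD, n = 4 each), so the genotype and the markers cannot be told apart in this fit. The part of stromal cells in the Itgb1 level was not tested.

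**Figure D3:**
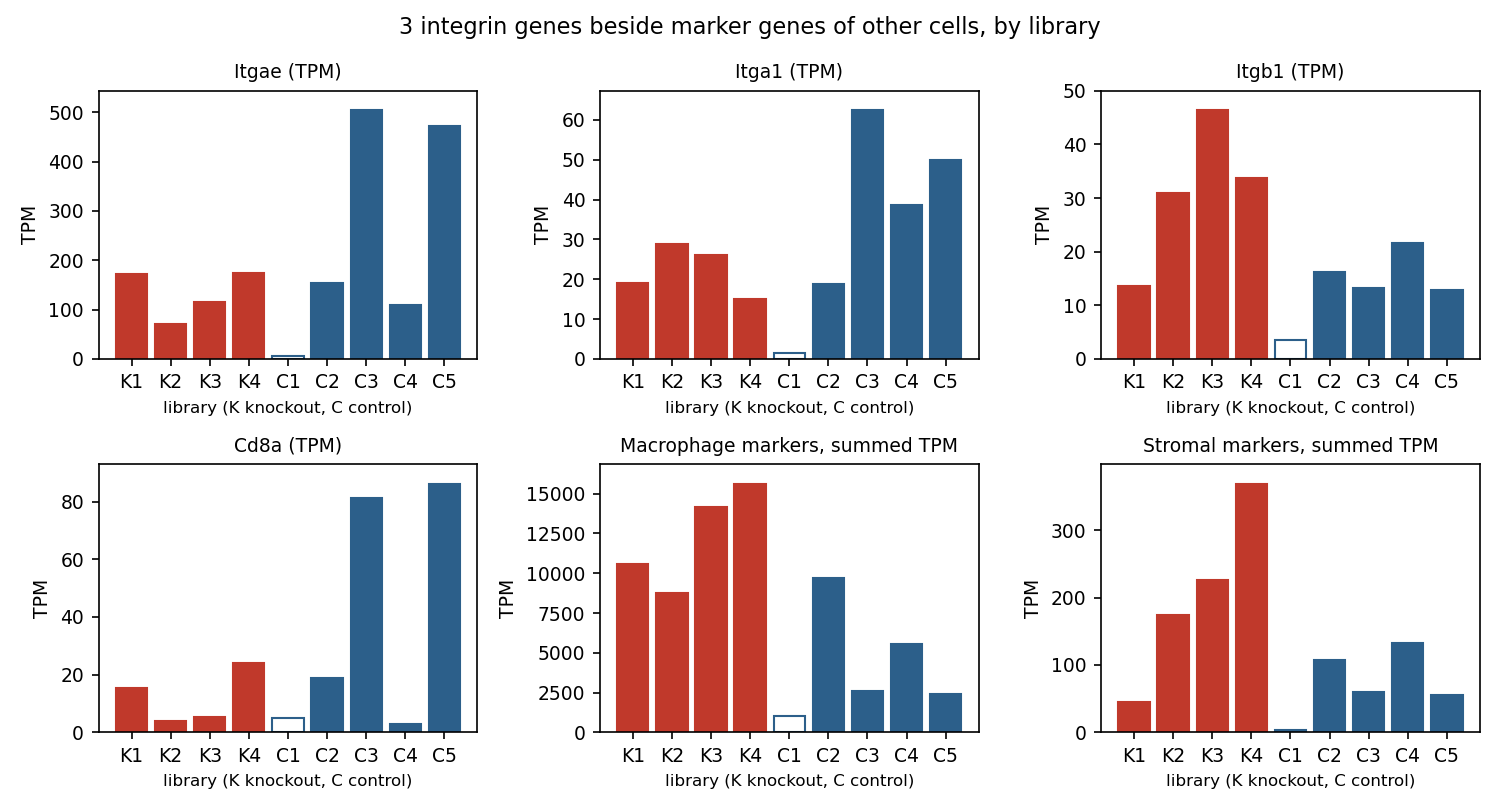
TPM in each library (K1 to K4 knockout, C1 to C5 control, open bar control replicate 1) of Itgae, Itga1 and Itgb1, above Cd8a and the summed macrophage and stromal markers. Itgae and Cd8a are both highest in C3 and C5, and Itgb1 is highest in K2 to K4, the libraries with the most stromal marker transcripts. K2 to K4 also had the highest mean log2 level of the macrophage markers, which the summed panel does not show.

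Itga1 (chr13:114953096-115101964, minus strand) and its neighbour Itga2 (chr13:114833081-114932100, minus strand) encode collagen receptor chains that pair only with beta-1, and Itga1 (CD49a) is used as a marker of resident T cells. Itga1 stood at 19.2, 28.8, 26.0 and 15.0 TPM in the knockout replicates and at 1.51, 18.8, 62.4, 38.7 and 49.9 TPM in the controls. Control replicates 3 to 5 lay above every knockout library and control replicate 2 within the knockout range. Without control replicate 1 the means were 22.2 ± 6.33 and 42.5 ± 18.5 TPM (SD, n = 4 each), and the log2 difference was -0.82 (standard error 0.35), with a 95% interval from -1.62 to -0.022 (limma, unadjusted p = 0.0452, adjusted p = 0.372; exact p = 0.143). With 9 libraries it was -0.025 (limma, adjusted p = 0.987), or -0.48 relative to all genes. Itga2 was low, at 2.03, 2.60, 1.27 and 1.07 TPM in the knockouts and 0.21, 1.24, 3.29, 2.67 and 2.24 TPM in the controls. The groups overlapped, and its log2 difference was -0.29 with 8 libraries and -0.0023 with 9 (limma, adjusted p = 0.703 and 0.997).

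Itgal (chr7:127296260-127335138, plus strand) and Itgb2 (chr10:77530252-77565708, plus strand), the genes of the ICAM receptor LFA, had group means within 1 SD of each other outside control replicate 1. Itgb2 varied little outside control replicate 1, at 523.3, 559.5, 454.9 and 483.5 TPM in the knockouts and 36.5, 433.5, 520.2, 465.7 and 481.0 TPM in the controls. Its log2 difference with 8 libraries was 0.087 with a 95% interval from -0.11 to 0.28 (limma, adjusted p = 0.748). Itgal stood at 239.0, 268.8, 194.5 and 189.1 TPM in the knockouts and at 21.9, 133.4, 274.7, 239.6 and 222.5 TPM in the controls. Control replicates 1 and 2 were low and the others lay in or just above the knockout range, and the log2 difference with 8 libraries was 0.068 with a 95% interval from -0.43 to 0.56 (limma, adjusted p = 0.943). Beta-2 is found on all leukocytes, macrophages included, and the macrophage markers had higher means in the knockouts, as given above. Their part in the Itgb2 level was not tested. With the macrophage covariate the Itgb2 difference was 0.24 (limma, unadjusted p = 0.0389, adjusted p = 0.454).

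Itgav (chr2:83724397-83806916, plus strand) and Itgb8 (chr12:119158022-119238802, minus strand), the genes of the TGF-beta activating integrin, were scarce. Itgav stood at 3.68, 6.31, 6.65 and 3.45 TPM in the knockouts and at 0.75, 2.18, 4.39, 5.22 and 4.64 TPM in the controls, a log2 difference of 0.24 with 8 libraries (limma, adjusted p = 0.793). Itgb8 stood at 0.37, 0.47, 0.06 and 0.74 TPM in the knockouts and at 0, 0.07, 0.07, 0.08 and 0.15 TPM in the controls. Knockout replicates 1, 2 and 4 lay above all controls and knockout replicate 3 among them. In a fit with no filter, over 19190 genes, its log2 difference was 0.37 (limma, unadjusted p = 0.0138, adjusted p = 0.717), on values that all lie under 1 TPM.

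Ratios of partner chains within a library, taken on TPM + 1, depend little on how libraries are scaled to each other. They do not cancel the low values of control replicate 1, which were low to unlike degrees. It stood at 2.04% of the mean of control replicates 2 to 5 for Itgae and at 11.1% for Itgb7. The mean log2 difference of the Itgae to Itgb7 ratio was -0.89 with it and -1.30 without it. Itgae reached 0.949, 1.09 and 1.28 times the level of Itgb7 in control replicates 2, 3 and 5, but 0.184 and 0.266 times in control replicates 1 and 4. In knockout replicates 1 to 4 the ratio was 0.601, 0.162, 0.256 and 0.382. Control replicates 2, 3 and 5 thus lay above all knockouts, and control replicates 1 and 4 within their range. Itga4 was far below Itgb7 in every library, at 0.0451 to 0.116 times its level, and closer to Itgb1, at 0.565 to 2.13 times. The ratio of Itgb7 to Itgb1, the alternative partners of Itga4, ranged from 9.59 to 19.7 in knockouts and from 8.74 to 32.5 in controls. Itga1 exceeded Itgb1 in control replicates 2 to 5, at 1.16, 4.44, 1.76 and 3.70 times its level, and in knockout replicate 1, at 1.39 times, and was below it in knockout replicates 2 to 4 and in control replicate 1. The mean log2 ratio of Itga1 to Itgb1 was -0.39 ± 0.72 (SD, n = 4) in knockouts and 0.84 ± 1.23 (SD, n = 5) in controls, or 1.27 ± 0.91 (SD, n = 4) without control replicate 1. Itga2 to Itgb1 was -3.47 ± 0.96 against -2.26 ± 0.50 (SD, n = 4 and 5), with only knockout replicate 1 above the lowest control. Itga2 itself was at 1.07 to 2.60 TPM in the knockouts, near the pseudocount of 1. The ratios of Itga4, Itga1, Itga2, Itgav and Itgb7 to Itgb1 all share the Itgb1 values, which were highest in knockout replicates 2 to 4. They are therefore not separate results. Itgal to Itgb2 stood at -1.19 ± 0.13 and -1.08 ± 0.37 (SD, n = 4 and 5). All 9 ratios overlapped between the groups, with 9 libraries and with 8. No test was run on the ratios.

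**Figure D4:**
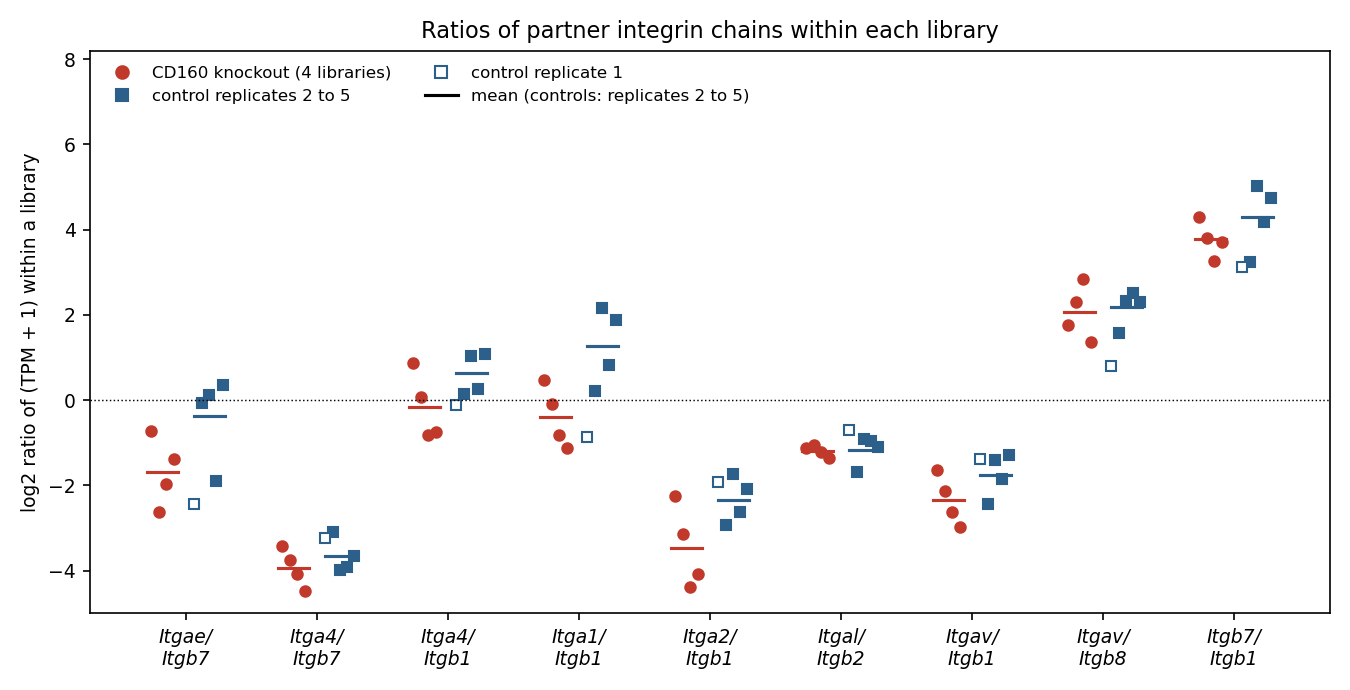
Log2 ratio of TPM + 1 between partner integrin chains in each library (red circles knockout, blue squares control, open squares control replicate 1, lines the means of the knockouts and of control replicates 2 to 5). The ratios to Itgb1 are lowest in 3 of the 4 knockout libraries for Itga2, and the groups overlap for all 9 pairs.

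Of the 16 other integrin genes, 9 passed the filter and 0 were called in limma with 9 or with 8 libraries. With 9 libraries all 9 differences were positive, with a median of 0.78 against 0.46 for all genes. Of these, 2 had an unadjusted p under 0.05, where 5.78% of all genes did with higher means in knockouts. With 8 libraries 7 were positive and 2 negative, with a median of 0.54 against -0.014, and 3 of the 9 had an unadjusted p under 0.05, all with higher means in knockouts, where 8.44% of all genes did. These were Itgam and Itgax, which encode the myeloid chains CD11b and CD11c, and Itga5, the alpha chain of the fibronectin receptor. Itgam stood at 19.4 ± 6.65 against 8.17 ± 4.32 TPM, Itgax at 47.9 ± 8.45 against 30.9 ± 11.1 TPM and Itga5 at 6.97 ± 2.54 against 3.25 ± 1.32 TPM (SD, n = 4 each, without control replicate 1). Their log2 differences were 1.22, 0.68 and 0.90 (limma, adjusted p = 0.222, 0.358 and 0.285), and 0.32, 0.48 and 0.57 with the macrophage covariate.

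Genes of the proteins that switch integrins on, link them or inhibit them from inside the cell had differences in both directions. Of 26 listed activators, adaptors and inhibitors 22 were tested, and 0 were called with either set of libraries. With 8 libraries 11 differences were positive and 11 negative, with a median of -0.0026, and 3 had an unadjusted p under 0.05 (higher means in knockouts for Cyth1 and Vcl, a lower one for Apbb1ip). Over all genes 12.8% had such a p. With 8 libraries the groups did not overlap for 1 of the 22, where 7.02% of all genes did not (3.01% lower in knockouts). This was Ilk, at 150.7 to 193.5 TPM in knockouts and 196.5 to 205.02 TPM in control replicates 2 to 5, named after its values were seen. Cyth1, which encodes the beta-2 regulator cytohesin, stood at 76.3 ± 8.31 TPM in knockouts and 59.0 ± 8.48 TPM in control replicates 2 to 5, a log2 difference of 0.37 (limma, adjusted p = 0.278). Vcl, the actin linker vinculin, had 0.50 (limma, adjusted p = 0.358) and Apbb1ip, the Rap effector that recruits talin, -0.38 (limma, adjusted p = 0.348). Pxn, the focal adhesion scaffold paxillin, had 0.46 and did not reach an unadjusted p of 0.05 (limma, adjusted p = 0.391). With 9 libraries 21 of the 22 were positive, with a median of 0.62, and 0 had an unadjusted p under 0.05, where 6.39% of all genes did.

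Among the ligands, 9 of 12 were tested and 0 were called. With 8 libraries 7 differences were positive and 2 negative, with a median of 0.48 against -0.014 for all genes, and 4 of the 9 had an unadjusted p under 0.05, all with higher means in knockouts, where 8.44% of all genes did. With 9 libraries all 9 were positive, with a median of 1.11. Of these, 2 were under that level, where 5.78% of all genes were with higher means in knockouts. Vcam1, the partner of alpha-4 beta-1 on vessels, stroma and macrophages, stood at 22.6, 52.3, 64.2 and 113.0 TPM in the knockouts and at 1.23, 29.5, 10.8, 13.9 and 11.4 TPM in the controls. Knockout replicates 2 to 4 lay above all controls and knockout replicate 1 below control replicate 2, and the log2 difference with 8 libraries was 1.78 (standard error 0.47; limma, adjusted p = 0.18). Nrros, which anchors latent TGF-beta on myeloid cells, was free of overlap, at 61.9 to 74.3 TPM in the knockouts and 2.32 to 54.3 TPM in the controls (log2 difference 0.68 with 8 libraries, limma adjusted p = 0.154). It was 1 of 9 tested ligands without overlap and higher, where 3.88% of all genes were with 9 libraries and 4.01% with 8. Fn1 (fibronectin), Icam1 and Col1a1, the last of which did not reach an unadjusted p of 0.05, had 1.23, 0.40 and 0.95 (limma, adjusted p = 0.29, 0.269 and 0.485). With the macrophage covariate the 5 differences were 0.60 for Vcam1, 0.32 for Nrros, 1.17 for Fn1, 0.48 for Icam1 and -0.23 for Col1a1.

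Of the other genes of gut homing, egress and residency, 20 of 21 were in the table and tested, and 0 were called. With 8 libraries 8 differences were positive and 12 negative, with a median of -0.090, and 5 of the 20 had an unadjusted p under 0.05, where 12.8% of all genes did. Among these, Ccr7, Tgfbr1 and Rarg, the last named after its values were seen, had higher means in knockouts and Rgs1 a lower one. Ccr7, the chemokine receptor of lymph node entry, had 0.99 and Tgfbr1, a TGF-beta receptor chain, 0.64 with 8 libraries (limma, adjusted p = 0.358 and 0.298). Rgs1, a brake on chemokine receptor signals that is abundant in gut T cells, had -0.48, at 1148 ± 178.5 TPM against 1601 ± 281.7 TPM (SD, n = 4 each; limma, adjusted p = 0.229). With 8 libraries the groups did not overlap for 2 genes higher in knockouts and 1 lower, where 4.01% and 3.01% of all genes did not. With 9 libraries all 20 were positive, with a median of 0.45 against 0.46 for all genes. Of these, 2 had an unadjusted p under 0.05, where 5.78% of all genes did with higher means in knockouts.

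The genes whose profile over the 8 libraries lay closest to that of a member were found by the root mean square difference between log2(TPM + 1) profiles, each centred on its own mean. For Itgae these were Cd7, a surface receptor of T and NK cells, at 0.21, Adgrg1, an adhesion receptor of cytotoxic lymphocytes, at 0.30, and Apol9b at 0.30, where the median over 11456 genes was 0.94. Cd7 stood at 408.8, 157.1, 206.8 and 526.3 TPM in the knockouts and at 120.7, 314.7, 1325, 243.1 and 1116 TPM in the controls. Like Itgae, Cd7 was highest in control replicates 3 and 5. For Itgb7 they were Tgfbr2, a TGF-beta receptor chain, at 0.11, Styx at 0.11 and Prmt3 at 0.12, where the median was 0.49. For Itgal they were Nmnat3 at 0.045, Lcor at 0.046 and Adam19 at 0.062, where the median was 0.33, and for Itga1 they were Hist2h2bb at 0.24, Dennd4a at 0.24 and Mctp2 at 0.25, where it was 0.63. A gene with no variation would lie at the member's own root mean square. That was 0.92 for Itgae, 0.49 for Itgb7, 0.32 for Itgal and 0.66 for Itga1, near the medians given. The medians therefore set a weak standard, and the named genes were picked as the smallest distances. These distances describe 8 libraries, which also differ in macrophage and stromal transcripts, and were not tested.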

How the data were processed

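The 9 libraries are full-length polyadenylated RNA libraries of a modified SMART-Seq2 kind read in pairs of 38 bases, per the labels' protocols. The authors deposited 1 table of TPM values. Trimmomatic 0.32, Bowtie2 2.2.9, RSEM 1.2.31 and GRCm38 are listed, without settings, per the submitters' processing notes. TPM keeps no depth, so counting error is unknown, and since a library's values share 1 total, abundant transcripts depress the rest. Titles gave each library its group and number.

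Knockouts and controls were compared on log2(TPM + 1) by a trended limma fit (limma 3.58.1, R 4.3.3). Genes reaching 1 TPM in 4 or more libraries were tested, and Benjamini-Hochberg adjustment ran over all of them, with calls at 0.05. Differences subtract control from knockout and understate the change of low genes. Exact two-sided permutation tests ran over the 126 splits of 9 libraries or the 70 of 8, where the smallest p is 0.0159 or 0.0286. The limma fit was tested on simulated data. The members, the 5 gene lists with 11 marker lists and the tests were chosen with earlier results of these data known. Named genes are the members, Cd160, up to 3 genes per list by smallest unadjusted p in each set of libraries, up to 3 most abundant markers per list and the 3 nearest profiles. Not all of them are printed, some genes of these lists are not reported here, and the stromal and macrophage lists are given by their sums. Other settings were pseudocounts of 0.1 and 5, no filter or 5 TPM, median-of-ratios scaling, the replicate number as a block, a macrophage covariate and leaving out libraries. Gene positions and promoters are from GENCODE and RefSeq tables of GRCm38. Plots used matplotlib 3.10.9 (Python 3.11.15).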

Additional observations from a re-analysis of the deposited data

Results flagged for a closer look

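Of 38 groups of values checked (10 genes and 9 ratios in each genotype), 4 held a library far from the rest of its group by Dixon's criterion, where chance flags about 1 in 20 groups. On the log2(TPM + 1) scale, control replicate 1 was the low library for Itga4 at 2.07, for Itgal at 4.51 and for Itgb2 at 5.23. Knockout replicate 1 was the low library of its group for Itgb7, at 8.16.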

How the results depend on the processing

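No member difference passed an adjusted p of 0.05 under any of the 187 alternatives computed for the 9 tested members, where adjusted p lay between 0.105 and 1. Of these, 160 kept the direction of the comparison with 9 libraries and 27 did not. The 27 were for Itgae, Itga1 and Itga2, whose differences with 9 libraries were 0.022, -0.025 and -0.0023, and for Itga4, at 0.56, only with median-of-ratios scaling. Itgae turned negative at a pseudocount of 5 (-0.078), with median-of-ratios scaling (-0.57), and, with control replicate 1 left out, with that scaling (-0.99), with the replicate block (-0.85) and with the macrophage covariate (-0.071). It was -0.044 without control replicates 1, 3 and 5 and -1.15 without control and knockout replicates 1, both settings added after the data were seen. Itga4 was -0.0013 with median-of-ratios scaling. Itga1 turned positive at a pseudocount of 0.1 (0.072) and with the replicate block (0.26), and Itga2 at a pseudocount of 0.1 (0.16), with the block (0.066) and with the covariate (0.15). With 1 library left out at a time, Itgae ranged from -1.0 to 0.53, Itgb7 from 0.30 to 1.19, Itga4 from 0.036 to 0.74, Itga1 from -0.82 to 0.34, Itga2 from -0.29 to 0.17, Itgb1 from 0.83 to 1.55, Itgal from 0.068 to 0.97, Itgb2 from 0.087 to 1.04 and Itgav from 0.24 to 0.70. The lowest values of Itgae, Itgb7, Itga4, Itga1, Itga2, Itgb1, Itgal, Itgb2 and Itgav all came from leaving out control replicate 1. The highest came from leaving out knockout replicate 1 for Itgb1, control replicate 4 for Itgav and control replicate 3 for the others, with the same value for Itga4 without control replicate 5.

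The count of called genes in the whole table, 2 with 9 libraries, was 3 at a pseudocount of 0.1 and 1 at a pseudocount of 5. With median-of-ratios scaling of the 9 libraries the count was 3. It was 0 with no filter, with a filter of 5 TPM, with the replicate block and with the exact test, whose smallest p of 0.0159 leaves a call nearly out of reach. With control replicate 1 left out it was 4 with median-of-ratios scaling, 0 with the replicate block and 1 with the macrophage covariate. Without control replicates 1, 3 and 5 it was 0, and without control and knockout replicates 1 it was 11. With 1 library left out at a time it ranged from 0 to 3, with 3 when control replicate 1 was left out and 0 for each of the other 8 libraries. The cause of these changes was not tested. Same-numbered libraries did not deviate together with 9 libraries (correlations of -0.017, -0.093, -0.14 and -0.089 for numbers 1 to 4). Without control replicate 1 the correlations were -0.21, -0.15 and -0.018 for numbers 2 to 4. Deviations from the means of so few libraries cannot show whether same-numbered libraries were handled together, and the labels do not say. With the replicate block in the fit of 9 libraries Itgae was 0.50 and Itgb1 1.23. Control replicate 5 has no partner and drops out of the blocked fits, as does knockout replicate 1 once control replicate 1 is left out. Of 199 alternative values of ratios and list medians 197 stayed within 1 SD. The exceptions were Itgav to Itgb8 at a pseudocount of 0.1 (-0.64) and the ligand median with the macrophage covariate (0.055). Staying within 1 SD did not keep a median's size or sign. Without control replicate 1 the residency median went from 0.45 to -0.090 and the members' median from 0.56 to 0.068. That of the activators, adaptors and inhibitors went from 0.62 to -0.0026. With median-of-ratios scaling of 9 libraries the residency median was -0.036. Depth is unknown, so values under 1 TPM such as those of Itgb8 carry an unknown counting error.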
